A study of Mus musculus with 2 samples.

Results

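Most of the genes described here encode core spliceosome proteins, those of the small nuclear ribonucleoproteins (snRNPs) and of the factors that recruit the U2 snRNP. The set also holds other factors such as Prpf4b and Prpf19. Proteins of Lsm1, Lsm10, Lsm11, Lsm12, Lsm14a and Lsm14b work outside the ring on U6 RNA. All genes were taken from the deposited expression table as the mRNA rows whose symbol starts with Snrp, Sf3a, Sf3b, U2af or Prpf, or with Lsm followed by a digit. This gave 48 of 22669 mRNA genes, of which 47 reached 1 FPKM (fragments normalised to gene length and library size) in at least 1 library and are called measured. RNA of mouse hindlimb muscle was sequenced as 1 library of genotype SRSF2 flox/flox MyoD-Cre (the knockout library) and 1 library of genotype SRSF2 flox/flox (the control library, which a label also calls WT). Floxed Srsf2 alleles are thus common to both, and effects of the Cre allele and of the deletion cannot be told apart. MyoD-Cre acts in the myogenic lineage, so other cells of the limb keep Srsf2. The labels give neither age nor sex nor whether animals were pooled. With 1 library for each genotype there is no replicate check and no p-value, and "higher" and "lower" describe these 2 libraries.

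Introns are removed by the spliceosome, which is built anew on each intron from snRNPs, each made of a small nuclear RNA and its proteins. The U1 snRNP pairs with the 5′ splice site, U2AF binds the polypyrimidine tract and the 3′ splice site, and the U2 snRNP with its SF3A and SF3B complexes then settles on the branch point. The U4/U6.U5 tri-snRNP joins next and brings the catalytic core. SRSF2, the SR protein whose gene was floxed, binds exonic enhancers and helps U1 and U2 components to find the neighbouring splice sites.

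The knockout library held 76702198 reads and the control library 69422626, and the mapped shares were 79.99% in knockout and 81.43% in control muscle. Srsf2 was at 19.4 FPKM in knockout muscle and 31.1 FPKM in control muscle, with a ratio of 0.624 (95% counting interval 0.567 to 0.685). The muscle markers Acta1, Ckm, Des, Ttn, Tnnt3, Myh3, Myh8 and Tnnc2 were all present, with a summed level of 22044 FPKM in knockout muscle and 38969.6 FPKM in control muscle. For 10 keratinocyte markers the sum was 1841 FPKM in knockout muscle, with 9 of 10 at 1 FPKM or more, and 10.3 FPKM in control muscle, with 3 of 10 at 1 FPKM or more and 1 at 0. For 7 adipocyte markers it was 607 FPKM in knockout muscle and 294 FPKM in control muscle, with 6 of 7 at 1 FPKM or more in each. All 10 markers of cycling cells were above their control values, with a sum of 184 FPKM in knockout muscle and 124 FPKM in control muscle. The part of these cell types in the differences below was not tested, and in bulk RNA a change in the number of cells of a type cannot be told apart from a change in the RNA per cell.

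Levels differed widely between the genes of this set (the members), and most were a little higher in knockout muscle as deposited. The 47 measured genes ranged between 1.44 and 169.7 FPKM with a median of 22.2 FPKM in knockout muscle, and between 1.63 and 142 FPKM with a median of 18 FPKM in control muscle. Their summed FPKM made up 0.345% of all FPKM in knockout muscle and 0.269% in control muscle. The difference of a gene was taken as knockout minus control on the log2(FPKM + 1) scale, which understates the differences of low genes. On that scale the members had a median of 0.28, with 41 above 0 and 6 below 0 (30, 30 and 28 above 0 under the 3 scalings given below), whereas all 11662 measured mRNA genes had a median of 0.19 and 74.5% of them lay above 0. Against the median gene, which was itself higher in knockout muscle, 33 of the 47 members lay higher. With 0.1 FPKM added in place of 1, 28 did, and the medians were 0.29 for the members and 0.22 for all mRNA genes. The count was also 28 when the libraries were scaled to their typical genes by median of ratios, by TMM, or without the 50 most abundant genes. These scalings lowered every difference by 0.21 or 0.22 at high levels. They brought the median of all mRNA genes to 0.015, 0.017 and 0.0057 and that of the members to 0.080, 0.083 and 0.069.

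**Figure D1:**
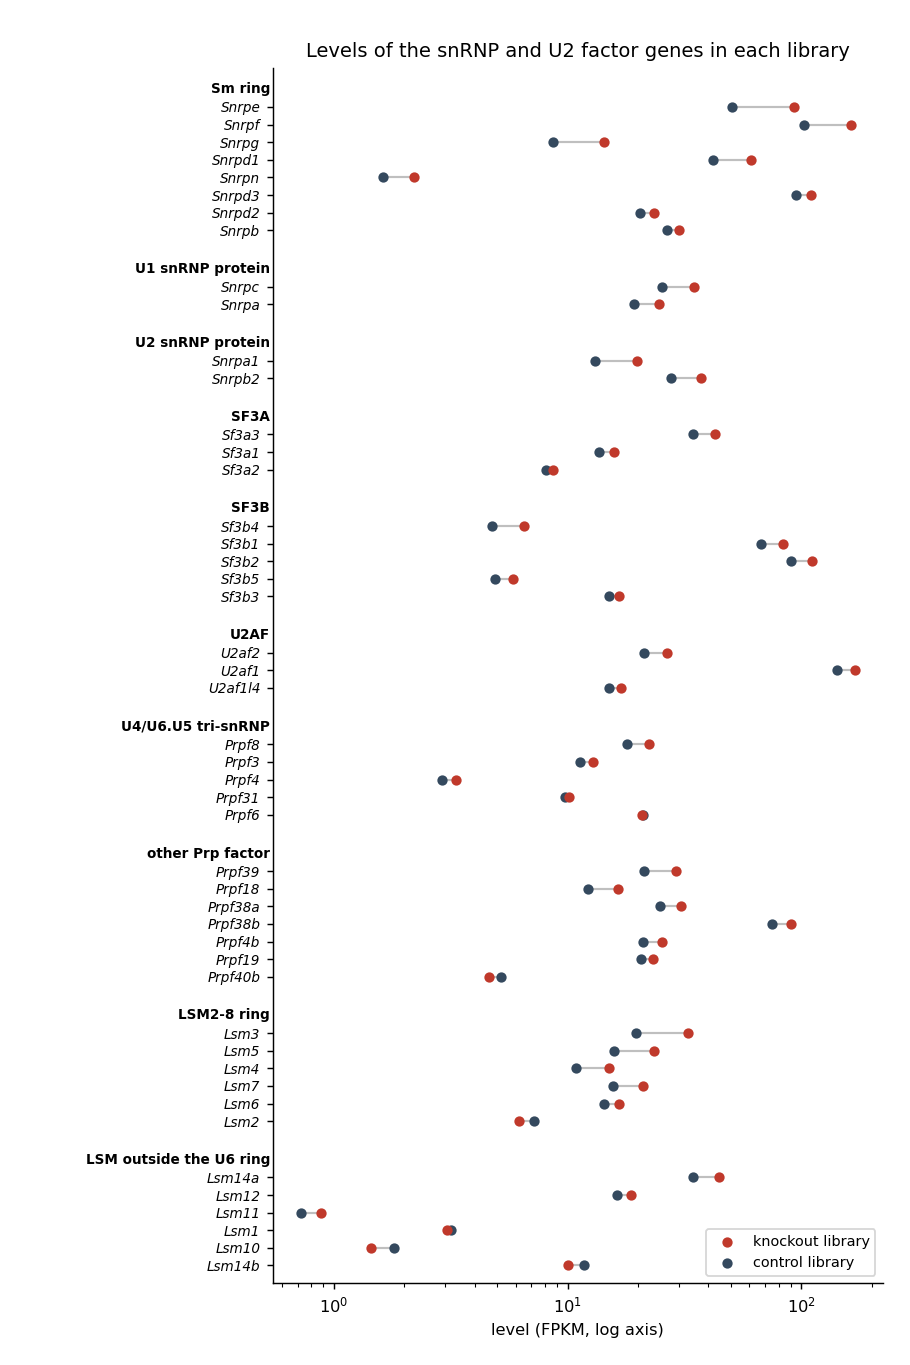
Levels of 47 of the 48 genes in FPKM on a log axis, grouped by role, with 1 point for the knockout library and 1 for the control library. Most pairs sit close together with the knockout point to the right, the widest gaps are those of Snrpe, Lsm3, Snrpf and Snrpg, and Lsm14b, Lsm10, Lsm2 and Prpf40b have the knockout point to the left.

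No member was higher or lower by a difference of 1 or more (2-fold), a size that 2.41% of the measured mRNA genes passed upward and 0.360% downward. At a difference of 0.58 (1.5-fold on the log2(FPKM + 1) scale), 4 of 47 members (8.51%) were higher, against 8.67% of all measured mRNA genes, and none was lower, against 1.91%. The share of higher members was thus close to the background. At a difference of 0.32, the smallest size used, 17 of 47 (36.2%) were higher, against 30.3% of all genes, and none was lower, against 6.36%. The distribution of the members was narrower than that of all genes, with quartiles at 0.16 and 0.40 for the members and at -0.01 and 0.37 for all measured mRNA genes.

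**Figure D2:**
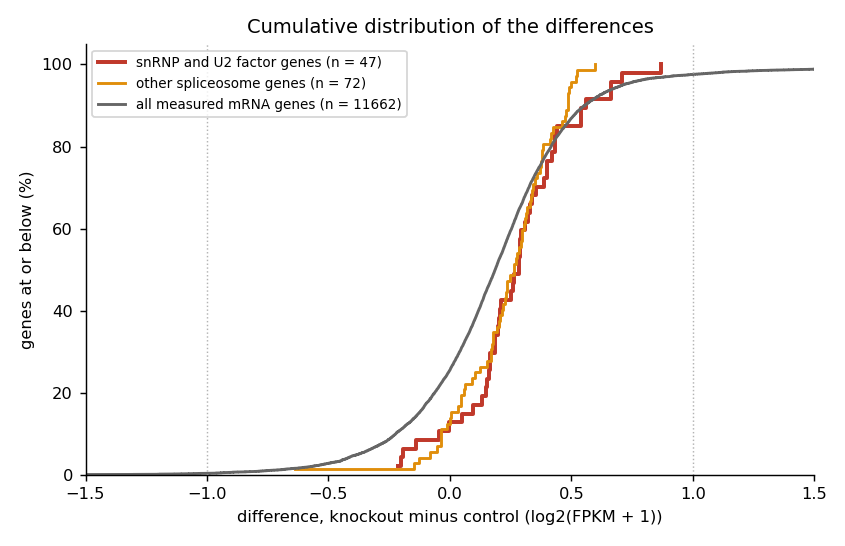
Cumulative share of genes (percent, vertical axis) at or below each difference of knockout minus control on the log2(FPKM + 1) scale, for the 47 members, 72 other spliceosome genes and 11662 measured mRNA genes. The curves of the members and of the other spliceosome genes are steeper than the curve of all genes. They lie to its right over most of the range, cross it near the upper end, and stay between the dotted lines at a 2-fold difference.

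The 4 genes past a difference of 0.58, a share close to that of all genes, were Snrpe, Lsm3, Snrpf and Snrpg. All of them encode subunits of the small protein rings around snRNAs. The promoters of these 4 genes and of Lsm10 and Lsm14b, the members with the lowest differences, are shown as the RefSeq sequences on GRCm38.p6, 250 bases before to 50 bases after the annotated start, because these genes mark the ends of the range. Capitals mark CCGGAAG, the core bound by ETS transcription factors, searched on both strands.
Snrpe (chr1:133610231-133610530, minus strand): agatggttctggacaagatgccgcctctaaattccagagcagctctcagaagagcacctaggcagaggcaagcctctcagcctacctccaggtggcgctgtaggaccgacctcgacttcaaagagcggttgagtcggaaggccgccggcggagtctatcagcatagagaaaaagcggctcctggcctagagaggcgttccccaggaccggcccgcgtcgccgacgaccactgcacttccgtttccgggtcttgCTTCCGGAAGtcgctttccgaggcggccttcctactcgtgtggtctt
Lsm3 (chr6:91515785-91516084, plus strand): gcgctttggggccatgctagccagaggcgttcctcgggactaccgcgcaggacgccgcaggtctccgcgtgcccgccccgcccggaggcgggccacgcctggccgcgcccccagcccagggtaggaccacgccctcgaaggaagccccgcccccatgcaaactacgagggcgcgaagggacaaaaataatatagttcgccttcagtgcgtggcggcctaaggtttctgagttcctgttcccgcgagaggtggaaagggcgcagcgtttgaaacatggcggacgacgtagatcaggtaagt
Snrpf (chr10:93589609-93589908, minus strand): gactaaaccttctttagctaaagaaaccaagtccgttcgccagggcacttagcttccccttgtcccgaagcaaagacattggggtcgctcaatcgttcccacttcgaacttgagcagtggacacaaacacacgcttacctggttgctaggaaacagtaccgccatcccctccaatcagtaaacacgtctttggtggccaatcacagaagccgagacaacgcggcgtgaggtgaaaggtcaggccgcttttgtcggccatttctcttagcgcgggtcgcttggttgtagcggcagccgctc
Snrpg (chr6:86371290-86371589, plus strand): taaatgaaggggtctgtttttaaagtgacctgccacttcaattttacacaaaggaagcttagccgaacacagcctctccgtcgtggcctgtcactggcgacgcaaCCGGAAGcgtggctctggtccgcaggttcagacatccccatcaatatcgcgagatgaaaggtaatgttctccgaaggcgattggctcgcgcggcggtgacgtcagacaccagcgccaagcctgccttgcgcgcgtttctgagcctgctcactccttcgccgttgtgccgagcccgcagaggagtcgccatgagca
Lsm10 (chr4:126096403-126096702, plus strand): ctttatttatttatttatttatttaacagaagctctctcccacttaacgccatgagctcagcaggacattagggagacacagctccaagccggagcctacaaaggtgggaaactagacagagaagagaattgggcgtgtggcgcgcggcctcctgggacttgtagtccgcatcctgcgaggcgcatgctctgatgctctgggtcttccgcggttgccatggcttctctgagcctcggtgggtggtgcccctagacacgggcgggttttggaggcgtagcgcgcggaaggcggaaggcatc
Lsm14b (chr2:180024737-180025036, plus strand): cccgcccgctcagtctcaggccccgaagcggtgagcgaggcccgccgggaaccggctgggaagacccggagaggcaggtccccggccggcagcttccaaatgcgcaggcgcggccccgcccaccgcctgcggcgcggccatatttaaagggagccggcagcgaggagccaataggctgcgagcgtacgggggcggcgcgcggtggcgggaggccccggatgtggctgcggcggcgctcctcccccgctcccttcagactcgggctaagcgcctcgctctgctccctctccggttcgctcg
Among these 6 promoters the letters occurred in those of Snrpe and Snrpg, and in Snrpe the matches on the 2 strands overlapped. Entries were present for 37 of the 47 measured members, and 14 of them (37.8%) held CCGGAAG. The same was true of 19.99% of 8736 measured mRNA genes with an entry and of 9.93% of all 27025 genes with an entry, and the letters were in 8.86% of all 32851 promoters. The members with a match included Snrpc, Snrpb2 and Lsm5 as well as Sf3a1, Sf3a2, Sf3a3, Sf3b2, Sf3b3, Prpf3, Prpf4b, Prpf6 and Prpf19. Of the 12 members with an entry that were higher by 0.32 or more, 5 held it. The CCAAT box (CCAAT, either strand) was found for 48.6% of the 37 members and 42.4% of measured mRNA genes, the GC box of Sp1 (GGGCGG) for 59.5% of members and 70.1% of these genes, the TATA box (TATAAA) for 8.11% of members and 9.18% of these genes, and the YY1 letters AAGATGG for 8.11% of members and 8.44% of these genes. In all promoters these letters occurred in 37.4%, 35.7%, 13.6% and 6.34%. A match is a description of the letters and not a bound site.

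The Sm proteins form the ring of 7 that closes around the Sm site of the U1, U2, U4 and U5 RNAs. All 8 genes of this group were above their control values as deposited (median difference 0.41), and 5 of 8 were under each of the 3 scalings. Snrpe (chr1:133603871-133610280, minus strand), which encodes Sm protein E, had the highest difference of the 47 genes. It was at 92.9 FPKM in knockout muscle and 50.5 FPKM in control muscle, with 641 reads in knockout and 331 in control muscle as recovered from the FPKM values. Recovered reads are the smallest whole numbers that give both values, so true reads may be a multiple of them and intervals narrower. For Snrpe they imply a length of 246 bases, below its longest annotated coding length of 276 bases. The implied lengths of Prpf38b, Sf3a3 and Sf3a2 are also below their coding lengths, so the reads of these genes may be too few. Gene positions are those of the files, taken as GRCm38. The ratio of knockout to control was 1.84, and its 95% interval, which covers counting error only, ran between 1.61 and 2.11. Snrpf (chr10:93583029-93589658, minus strand), for Sm protein F, was at 163 FPKM in knockout muscle and 102 FPKM in control muscle, with a ratio of 1.59 (1.51 to 1.68) from 3710 knockout and 2216 control reads. Snrpg (chr6:86371540-86378902, plus strand), for Sm protein G, was at 14.3 FPKM in knockout and 8.69 FPKM in control muscle, with a ratio of 1.65 (1.27 to 2.16) from 158 knockout and 91 control reads. The E, F and G proteins form 1 subcomplex before the ring closes, and these were the 3 Sm genes with the highest differences. Snrpe, Snrpf and Snrpg each have nearly identical pseudogene sequence, so their levels are uncertain.

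The other Sm subunits were closer to the median gene, whose ratio of knockout to control was 1.17 with nothing added to the FPKM values. Counts of members above the median gene use the log2(FPKM + 1) scale instead. On that scale Snrpd2 and Snrpd3, and outside the Sm group Lsm6, Sf3a1 and Lsm12, lie above the median gene, although their ratios are below 1.17. Snrpd1, for Sm protein D1, was at 61.01 FPKM in knockout muscle and 41.7 FPKM in control muscle, with a ratio of 1.46 (1.35 to 1.59). Its partner gene Snrpd2 was at 23.3 FPKM in knockout and 20.4 FPKM in control muscle, with a ratio of 1.15 (1.02 to 1.29). The proteins D1 and D2 join the ring as a pair, and the intervals of their genes did not overlap. Snrpd3, for Sm protein D3, was at 109.6 FPKM in knockout muscle and 95.1 FPKM in control muscle, with a ratio of 1.15 (1.08 to 1.23) from 1857 knockout and 1532 control reads. Its difference of 0.20 became -0.0038, -0.0014 and -0.016 under median of ratios, TMM and scaling without the 50 most abundant genes. Snrpb, for the B protein that pairs with D3, was at 30.1 FPKM in knockout and 26.7 FPKM in control muscle, with a ratio of 1.13 (1.03 to 1.23). The subunits of the ring therefore differed unequally, with E, F, G and D1 at counting intervals above the ratio of the median gene and B, D2 and D3 at intervals that include it. Snrpn, the imprinted gene of the B-like protein N that is used mainly in the brain, was low, at 2.21 FPKM in knockout muscle and 1.63 FPKM in control muscle. Of 4 neuron markers none reached 1 FPKM, and their sum was 0.628 FPKM in knockout muscle and 0.441 FPKM in control muscle. Snrpn shares its transcript with Snurf, at 2.28 FPKM in knockout and 1.67 FPKM in control muscle, and their reads cannot be told apart.

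The proteins particular to the U1 and U2 snRNPs were above the median gene in all 4 cases. Snrpc (U1-C, which steadies the pairing of U1 with the 5′ splice site) was at 34.8 FPKM in knockout muscle and 25.4 FPKM in control muscle, with a ratio of 1.37 (1.249 to 1.503). Snrpa (U1-A, which binds a stem loop of U1 RNA) was at 24.7 FPKM in knockout and 19.3 FPKM in control muscle, with a ratio of 1.28 (1.16 to 1.41). The interval of Snrpa includes the ratio of the median gene. Snrpa1 (chr7:66060343-66074584, plus strand), for the leucine-rich protein U2-A′ of the U2 snRNP, was at 19.7 FPKM in knockout muscle and 13.1 FPKM in control muscle. Its ratio was 1.51 (1.34 to 1.71) from 692 knockout and 435 control reads, and its difference was the fifth highest of all members. Snrpb2, for U2-B″, the partner of U2-A′, was at 37.3 FPKM in knockout and 27.7 FPKM in control muscle, with a ratio of 1.35 (1.24 to 1.47). The 4 genes within the rule stayed above the median gene under all 3 scalings.

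SF3A and SF3B are the complexes that anchor the U2 snRNP at the branch point. Their 8 genes were all above the control values as deposited, and 6, 6 and 5 were under the 3 scalings, with median differences of 0.20 for SF3A and 0.29 for SF3B as deposited. Sf3b2 and Sf3b1 were the abundant ones, and Sf3b1 encodes the large scaffold that encloses the branch-point adenosine. Sf3b1 (chr1:55012222-55027497, minus strand) was at 83.6 FPKM in knockout muscle and 67.2 FPKM in control muscle, with a ratio of 1.24 (1.21 to 1.27) from 14819 knockout and 11327 control reads. Sf3b2 (chr19:5273931-5295458, minus strand), for the subunit that contacts pre-mRNA near the branch site, was at 111 FPKM in knockout and 90.6 FPKM in control muscle, with a ratio of 1.22 (1.19 to 1.26) from 10042 knockout and 7810 control reads. Both intervals lie narrowly above the median gene. Sf3b3 was at 16.6 FPKM in knockout and 15.1 FPKM in control muscle, and Sf3b4, which has an RNA-binding domain, at 6.5 FPKM in knockout and 4.73 FPKM in control muscle. For Sf3b5 the recovered reads were at least 60 in knockout and 48 in control muscle, and its 5.83 FPKM in knockout muscle and 4.91 FPKM in control muscle did not differ detectably with that number of reads (interval of the ratio 0.799 to 1.77). Within SF3A, Sf3a3 was at 42.5 FPKM in knockout and 34.5 FPKM in control muscle, Sf3a1 at 15.8 FPKM in knockout and 13.6 FPKM in control muscle and Sf3a2 at 8.69 FPKM in knockout and 8.07 FPKM in control muscle, with a ratio of 1.08 (0.887 to 1.31) for Sf3a2. The SF3A median difference was 0.20, which lies 0.013 above the median gene as deposited and -0.011, -0.010 and -0.012 from it under the 3 scalings. A row named 0610009D07Rik lies at the coordinates of Sf3b6, the SF3B subunit that touches the branch adenosine, and was outside the symbol rule. It was picked after its values were seen and was at 29.8 FPKM in knockout muscle and 22.05 FPKM in control muscle, with a ratio of 1.35 (1.22 to 1.495).

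U2AF is the heterodimer that reads the 3′ splice site. U2af1 (chr17:31647082-31658754, minus strand), for the small subunit that recognises the terminal AG, had the highest level of all members, at 169.7 FPKM in knockout muscle and 142 FPKM in control muscle. The implied length of this gene is far beyond its longest annotated transcript, and its recovered reads were divided to correct for that, which widens the interval. Its ratio was 1.198 (1.15 to 1.246) from 5627.8 knockout and 4464.7 control reads after division, an interval that includes the ratio of the median gene. U2af2, for the large subunit that binds the polypyrimidine tract, was at 26.7 FPKM in knockout and 21.2 FPKM in control muscle, with a ratio of 1.26 (1.16 to 1.37). U2af1l4, a related small subunit, was at 16.8 FPKM in knockout and 15.0 FPKM in control muscle, with a ratio of 1.12 (0.968 to 1.296). The level of U2af1 was 6.35 times that of U2af2 in knockout muscle and 6.69 times in control muscle. U2af1 also has nearly identical pseudogenes, so its level is uncertain.

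Of the 5 tri-snRNP genes within the symbol rule, Prpf8 alone lay above the median gene. Tri-snRNP genes with other symbols are in another list below. Of those, Ppih (difference 0.52), Eftud2 (0.33), Snrnp200 (0.31), Sart1 (0.23), Usp39 (0.22) and Txnl4a (0.21) lay above the median gene. Snrnp27 (0.15), Nhp2l1 (0.03) and Snrnp40 (-0.08) lay below it. Prpf8 encodes the large U5 protein at the heart of the catalytic core. Its level was 22.2 FPKM in knockout muscle and 18 FPKM in control muscle, with a ratio of 1.23 (1.18 to 1.29). Prpf3 and Prpf4, whose products bind the U4/U6 duplex together, were at 12.8 and 3.31 FPKM in knockout muscle and 11.3 and 2.89 FPKM in control muscle. Prpf31, for the protein that bridges U4/U6 to U5, was at 10.1 FPKM in knockout and 9.76 FPKM in control muscle, with a ratio of 1.04 (0.944 to 1.14). Prpf6 (chr2:181601319-181655661, plus strand), for the U5 protein that bridges the 2 snRNPs, was nearly level, at 20.86 FPKM in knockout muscle and 20.95 FPKM in control muscle. Its ratio was 0.996 (0.931 to 1.06) from 1788 knockout and 1706 control reads, an interval that ends below the ratio of the median gene. The median of these 5 Prpf genes was 0.15 as deposited and -0.028, -0.026 and -0.039 under the 3 scalings.

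The remaining Prp factors act with U1, at activation or in catalysis. Prpf39, for a U1-associated protein, was at 29.0 FPKM in knockout muscle and 21.2 FPKM in control muscle, with a ratio of 1.37 (1.29 to 1.44). Prpf18, for a factor of the second catalytic step, was at 16.5 FPKM in knockout and 12.3 FPKM in control muscle, with a ratio of 1.35 (1.249 to 1.45). These were the highest differences among the 8 genes. Prpf38b (chr3:108905299-108911952, minus strand), the most abundant of this group, was at 90.5 FPKM in knockout and 75.2 FPKM in control muscle, with a ratio of 1.204 (1.15 to 1.26) from 3889 knockout and 3068 control reads. Prpf38a, for an activation factor, was at 30.6 FPKM in knockout and 24.9 FPKM in control muscle. Prpf4b, a kinase that phosphorylates spliceosome proteins, was at 25.2 FPKM in knockout and 21.1 FPKM in control muscle. These 3 genes lay near the median of all members. Prpf19, the ubiquitin ligase that names the Prp19 complex, was at 23.1 FPKM in knockout muscle and 20.6 FPKM in control muscle, with a ratio of 1.12 (1.07 to 1.18). The value of Prpf40b lay below that of the control library, at 4.62 FPKM in knockout and 5.20 FPKM in control muscle, with a ratio of 0.889 (0.749 to 1.06) from 263.5 knockout and 281.5 control reads after division.

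**Figure D3:**
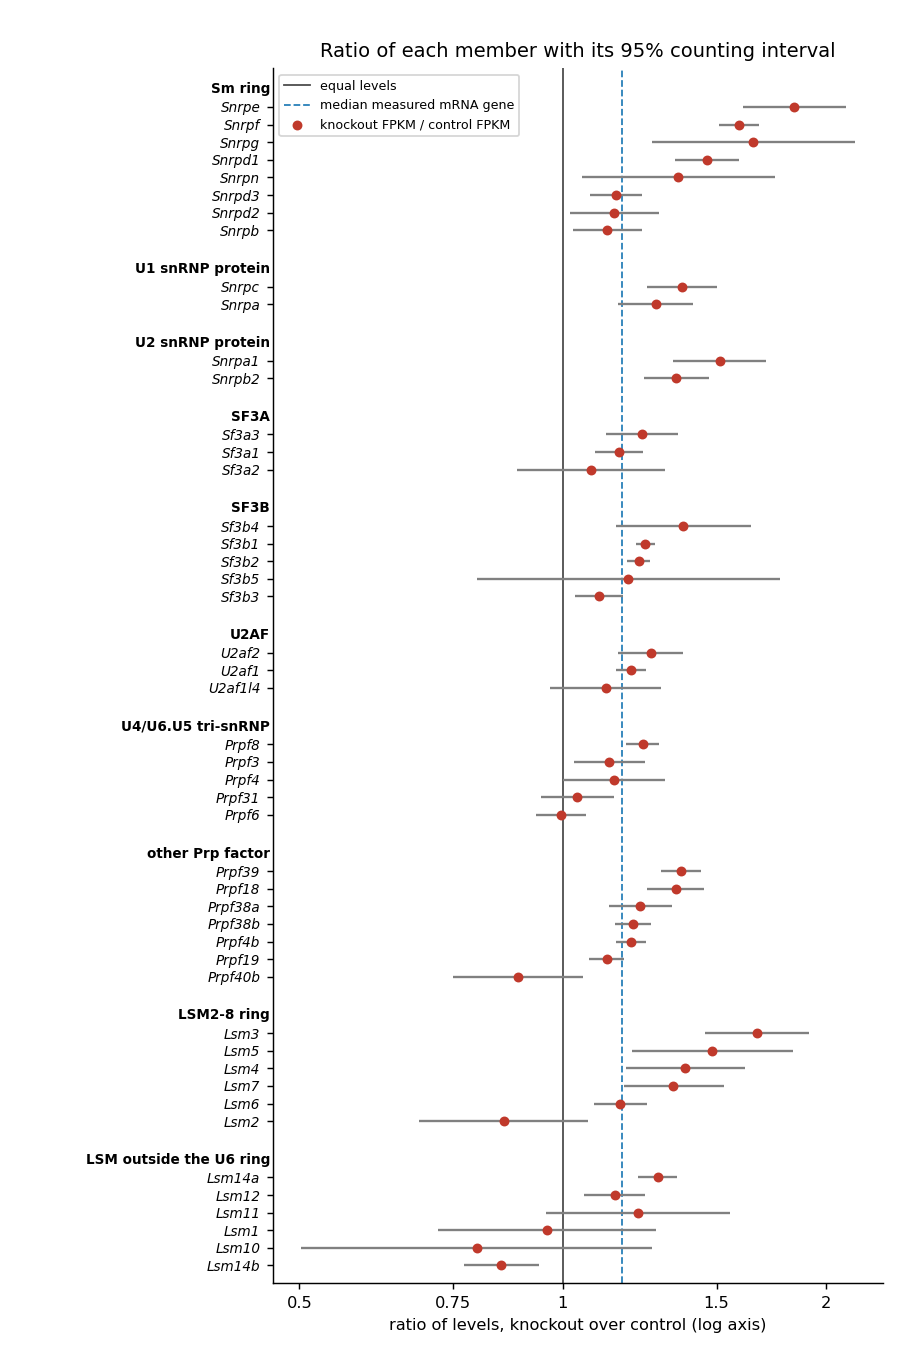
Ratio of knockout FPKM to control FPKM for 47 of the 48 genes on a log axis, grouped by role, with bars for the 95% counting interval, a solid line at equal levels and a dashed line at the ratio of the median measured mRNA gene (1.17). The Sm proteins E, F, G and D1, the U1 and U2 proteins and most of the LSM ring lie to the right of the dashed line. Most tri-snRNP genes within the symbol rule and Lsm1, Lsm2, Lsm10 and Lsm14b lie to its left.

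The LSM proteins 2 to 8 form the ring on the 3′ end of U6 RNA, the counterpart of the Sm ring. Of its 6 measured genes, 5 were above the control values as deposited and 5, 5 and 4 under the 3 scalings, with a group median of 0.42. Lsm3 (chr6:91516035-91522620, plus strand) had the second highest difference of all members, at 32.8 FPKM in knockout muscle and 19.7 FPKM in control muscle, with a ratio of 1.67 (1.45 to 1.91) from 581 knockout and 331 control reads. Lsm5 (chr6:56701057-56704612, minus strand) was at 23.4 FPKM in knockout and 15.8 FPKM in control muscle, with a ratio of 1.48 (1.199 to 1.84) from 228.5 knockout and 146.5 control reads after division. Lsm4 was at 15.0 FPKM in knockout and 10.9 FPKM in control muscle, Lsm7 at 20.98 FPKM in knockout and 15.7 FPKM in control muscle and Lsm6 at 16.7 FPKM in knockout and 14.3 FPKM in control muscle. The remaining subunit gene lay below its control value. Lsm2 was at 6.17 FPKM in knockout muscle and 7.20 FPKM in control muscle, and its ratio of 0.857 (0.686 to 1.07) rests on 156 knockout and 173 control reads and its interval includes equal levels. The files place Lsm2 and Snrpc on the unlocalised sequences nt_187004 and nt_187005, whereas RefSeq places both on chromosome 17, and how reads were placed between the copies was not tested. The row named Naa38 lies at the coordinates of Lsm8, the subunit that makes the ring nuclear, and was outside the symbol rule. It was picked after its values were seen and was at 23.2 FPKM in knockout muscle and 17.0 FPKM in control muscle, with a ratio of 1.36 (1.12 to 1.67).

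LSM genes whose proteins work outside the U6 ring had a median of -0.05, with 3 of 5 measured genes below the control value and 4 of 5 under each of the 3 scalings. LSM1 replaces LSM8 in the cytoplasmic ring that promotes mRNA decapping. Lsm1 (chr8:25785591-25803975, plus strand) was at 3.05 FPKM in knockout muscle and 3.18 FPKM in control muscle, with a ratio of 0.960 (0.721 to 1.28) from 101 knockout and 100 control reads, so a difference was not detectable at this depth. LSM10 and LSM11 replace the D1 and D2 proteins in the U7 snRNP, which processes histone mRNA. Lsm10 (chr4:126096578-126098584, plus strand) was at 1.44 FPKM in knockout and 1.81 FPKM in control muscle from 37 knockout and 44 control reads, a ratio of 0.799 (0.502 to 1.27). Lsm11 was the member under the minimum, at 0.878 FPKM in knockout muscle and 0.721 FPKM in control muscle. Lsm12, a protein with an LSM domain, was at 18.7 FPKM in knockout and 16.3 FPKM in control muscle.

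The genes of the LSM14 proteins, translational repressors of P-bodies, lay on either side of equal levels. Lsm14a was at 44.4 FPKM in knockout muscle and 34.5 FPKM in control muscle, with a ratio of 1.28 (1.22 to 1.35). Lsm14b (chr2:180024987-180035461, plus strand) had the lowest difference of the 47 genes, at 10.04 FPKM in knockout and 11.8 FPKM in control muscle, with a ratio of 0.851 (0.771 to 0.939) from 773 knockout and 863 control reads. The level of Lsm14b was 0.226 times that of Lsm14a in knockout muscle and 0.342 times in control muscle. Lsm10 stood at 0.0237 times the level of Snrpd1, the gene it stands in for in the U7 snRNP, in knockout muscle and 0.0433 times in control muscle. The other U7 pair went the other way. Lsm11, which was under the minimum, was at 0.0376 times the level of Snrpd2 in knockout muscle and 0.0354 times in control muscle. The counting intervals of Lsm11 (0.957 to 1.55) and Snrpd2 (1.02 to 1.29) overlap, so that direction is uncertain. The ratios of Lsm14b to Lsm14a and of Lsm10 to Snrpd1 were lower in knockout muscle. That of Lsm1 to the Naa38 row at the Lsm8 locus was lower too, at 0.132 in knockout and 0.187 in control muscle. The level of Snrpn over that of Snrpb was higher in knockout muscle, at 0.0734 in knockout and 0.0609 in control muscle. The counting intervals of Snrpn (1.05 to 1.75) and Snrpb (1.03 to 1.23) overlap. Those of Lsm1 (0.721 to 1.28) and the Naa38 row (1.12 to 1.67) overlap as well, so the directions of these pairs are uncertain. Prpf38b stood at 2.96 times the level of Prpf38a in knockout muscle and 3.01 times in control muscle, and U2af1l4 at 0.0993 times the level of U2af1 in knockout muscle and 0.106 times in control muscle.

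**Figure D4:**
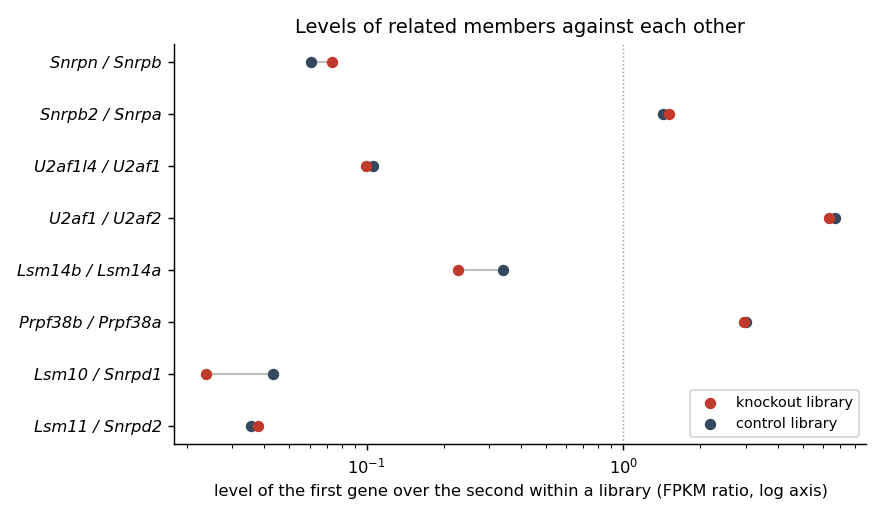
Level of 1 member over that of a related member within each library, on a log axis, with 1 point for the knockout library and 1 for the control library. The ratios of Lsm14b over Lsm14a and Lsm10 over Snrpd1 lie lower in knockout muscle, that of Snrpn over Snrpb lies higher, and the other pairs lie close together. The counting intervals of Snrpn and Snrpb overlap.

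Members with short coding sequences had the highest median difference. Of the 47 members, 17 had an annotated coding length of up to 600 bases, and these had a median difference of 0.40, compared with 0.29 for 15 members of more than 600 and up to 1500 bases and 0.25 for 15 longer ones. Among all measured mRNA genes the medians of the same classes were 0.23 for 1513 genes, 0.18 for 4690 and 0.18 for 5257. Across the 47 genes the difference and the log10 of the coding length had Pearson's r of -0.30 and Spearman's rho of -0.31, while across 11460 measured mRNA genes these were -0.06 and -0.04. These correlations are across genes that share the same 2 libraries and are not independent replicates. The class of up to 600 bases also holds Lsm2, Lsm10 and Lsm1, which were below their control values.

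**Figure D5:**
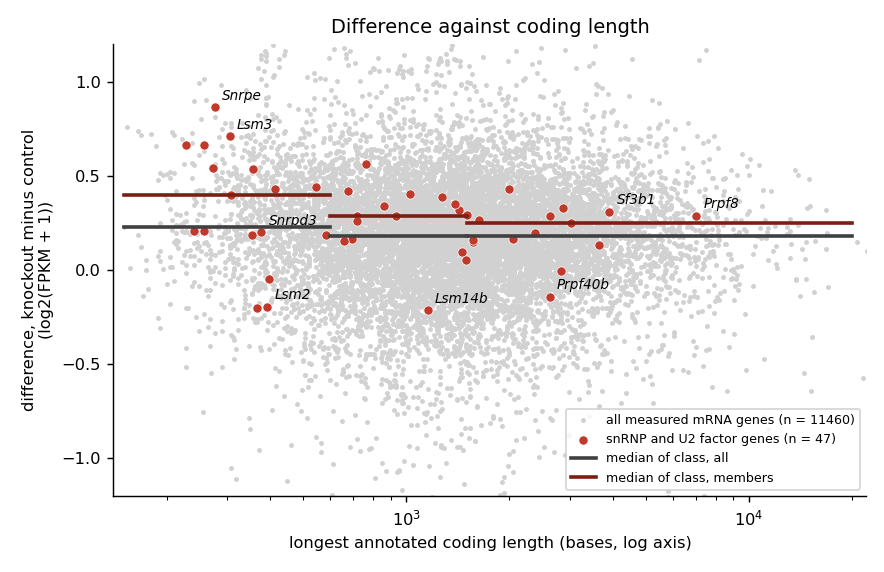
Difference of knockout minus control on the log2(FPKM + 1) scale against the longest annotated coding length in bases (log axis) for the 47 members and 11460 measured mRNA genes, with horizontal lines at the median of each length class. The members of up to 600 bases have the highest median (0.40) and include the highest gene, Snrpe, as well as Lsm2 and Lsm10 near the lower end, and genes beyond a difference of 1.2 in either direction are outside the axis.

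Other genes of the spliceosome, 74 in 5 lists and 72 of them measured, had a median of 0.26, close to that of the members. None passed 2-fold, against 2.41% of all measured mRNA genes upward and 0.360% downward. At a difference of 0.32 or more, 25 (34.7%) were higher and 1 lower, against 30.3% and 6.36% of all genes, so the share of higher genes was near the background. The proteins that share the snRNPs and U2 complexes with the members had a median of 0.29 (20 genes), with Ppih, Sart3 and Sf1 highest and Nhp2l1, Luc7l3 and Snrnp40 lowest. Sf1, the branch-point binding protein that precedes U2, was at 57.5 FPKM in knockout muscle and 41.1 FPKM in control muscle, and Luc7l3, a U1-associated protein, at 85.9 FPKM in knockout and 89.1 FPKM in control muscle. Minor spliceosome genes had a median of 0.36 (8 genes), with Snrnp25, Zrsr1 and Snrnp48 at the upper end and Zcrb1, Rnpc3 and Snrnp35 at the lower end. The Prp19 complex and catalytic factors had a median of 0.29 (18 genes), with Slu7, Syf2 and Bud13 at the upper end and Ppil1, Isy1 and Crnkl1 at the lower end. The helicases had a median of 0.25 (11 genes), with Dhx15, Dhx38 and Ddx39b highest and Eif4a3, Ddx39 and Ddx46 lowest, and Dhx15, which disassembles spliceosomes, was at 53.7 FPKM in knockout and 38.1 FPKM in control muscle.

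The assembly machinery that loads the Sm ring had a median of 0.12 over 15 genes as deposited, with 10 above 0, and of -0.070, -0.068 and -0.081 under the 3 scalings, with 6, 6 and 5 above 0. As deposited, 5 of the 15 lay above the median gene. Smn1, for the survival motor neuron protein that holds the Sm subunits, was at 25.2 FPKM in knockout muscle and 16.3 FPKM in control muscle, with a ratio of 1.54 (1.39 to 1.71), and was the 1 gene of the 72 (1.39%) with a difference above 0.58, against 8.67% of all measured mRNA genes. Ddx20 was at 5.42 FPKM in knockout and 3.54 FPKM in control muscle and Phax, which exports snRNAs, at 31.4 FPKM in knockout and 24.0 FPKM in control muscle. At the other end, Gemin6, a partner in the same complex, was the 1 gene lower by a difference of 0.58 or more, against 1.91% of all genes, at 1.84 FPKM in knockout muscle and 3.42 FPKM in control muscle, with a ratio of 0.537 (0.380 to 0.753). Wdr77 and Gemin5 were at 5.85 and 2.16 FPKM in knockout muscle and 6.60 and 2.45 FPKM in control muscle.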

How the data were processed

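The table that the authors deposited holds FPKM for each gene, a level relative to gene length and library size, and other tables hold read totals as counts. Bowtie 0.12.2 and mm9 appear in the submitters' processing notes, without a role. Positions in the files overlap those of RefSeq GRCm38.p6 for 46 of 48 members, and the remaining 2 are on unlocalised sequences, so the coordinates printed are those of the files, taken as GRCm38. Nothing in the labels or file headers states the counting tool, the annotation, the strand setting or the treatment of reads with several matches, and reads of overlapping or antisense genes may not be told apart.

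For each mRNA gene that reached 1 FPKM in either library, the difference was taken on the log2 scale after adding 1 FPKM to both levels. With 1 library for each genotype, differences of 1 (2-fold), 0.58 (1.5-fold) and 0.32 stand in place of tests. Members, gene lists, pairs and alternatives were chosen with earlier results of these data known, and the motifs after the values were seen. Values of 1 member enter the counts and medians but are not reported here. The other members were named, with reads for the 6 at either end of the differences and the 6 at the highest levels, the 3 genes at either end of each other list were named, and so was Srsf2.

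Genes with equal reads in both libraries share a ratio of 0.950 (1134 genes), from which the smallest whole reads that give both FPKM values and a whole gene length were recovered, within a relative tolerance of 2e-14, for 97.7% of measured mRNA genes and all 47 measured members. Where the length exceeded 1.2 times the longest GENCODE M21 transcript, as for 9 members, the reads were divided by the smallest whole number that corrected this. The 95% intervals were computed by the exact Clopper-Pearson method and cover counting error only, since without molecular identifiers 1 molecule can give several reads. Medians over the measured members were 1061 recovered reads for knockout muscle and 863 for control muscle. Coding lengths are the longest in GENCODE M21 (48 of 48 members and 98.3% of measured mRNA genes), and promoters are from RefSeq. The steps were tested on simulated data. TMM trimmed 30% of ratios and 5% of levels at each end, without weights. Computations ran in Python 3.11.15 with scipy 1.17.1 and numpy 2.4.6, tables were read with pandas 2.3.3, and figures were drawn with matplotlib 3.10.9.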

Additional observations from a re-analysis of the deposited data

How the results depend on the processing

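No library could be left out, and none could be paired. No paired analysis was possible because there is 1 library of either genotype. No member passed 2-fold under any pseudocount, filter or scaling tried. At differences of 0.58 and 0.32, which by construction count more genes, 4 and 17 members were higher, and of the other spliceosome genes 1 and 25 were higher and 1 and 1 lower. Of all measured mRNA genes 8.67% and 30.3% were higher and 1.91% and 6.36% lower. The medians moved with scaling, which by construction shifts all genes. Under median of ratios, TMM and scaling without the 50 most abundant genes, the median was 0.0804, 0.0827 and 0.0685 for members, 0.0667, 0.0691 and 0.0550 for the other spliceosome genes, and 0.0152, 0.0172 and 0.00570 for all mRNA genes. Snrpd3 changed sign, at -0.00382, -0.00145 and -0.0157. Of the 17 members at the ends of the range or at the highest levels, no other changed sign. None of the others could under these scalings, since their differences were negative already or above the largest shift, 0.22. Among all 47 measured members, the count of positive differences fell from 41 as deposited to 30, 30 and 28 under these scalings. Members outside the 17 thus changed sign too. The count of members above the median gene was 28 with a pseudocount of 0.1, 40 of 48 with no filter and 26 of 43 at 5 FPKM or more. The median of all mRNA genes itself moved, to 0.096 with no filter and 0.23 at 5 FPKM or more. That of the members was 0.27 and 0.29. After the data were seen, other choices were added: 35 of 49 lay above it with the rows at the Lsm8 and Sf3b6 loci, and 26 of 37 without the 10 members on unlocalised sequence or with divided reads. The intervals of 9 measured members include equal levels (Sf3a2, Sf3b5, U2af1l4, Prpf31, Prpf6, Prpf40b, Lsm1, Lsm2 and Lsm10). Their depths are unlike, with 37 knockout and 44 control reads for Lsm10 and 1788 knockout and 1706 control reads for Prpf6.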

Other observations

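Small nuclear RNAs themselves had low values in these libraries, and all were picked after their values were seen. Rnu2-10 was at 7.91 FPKM in the knockout library and 4.31 FPKM in the control library, and Rnu1a1 at 5.22 FPKM in knockout and 3.43 FPKM in control muscle. Rnu7, the RNA of the U7 snRNP, was at 4.60 FPKM in knockout and 3.03 FPKM in control muscle, from 8 knockout and 5 control reads. The minor spliceosome RNA Rnu12 was at 0.475 FPKM in the knockout library and is listed at 0 in the control library, and Rnu6 is listed at 0 in both. Rnu11 was at 0.660 FPKM in knockout and 0.347 FPKM in control muscle, from 2 knockout and 1 control reads. Rnu5g was at 0.307 FPKM and Rnu1b1 and Rnu1b2 at 0.216 FPKM each in knockout muscle, and all 3 are listed at 0 in control muscle. Rnu1b6 is listed at 0 in knockout muscle, against 0.226 FPKM in control muscle. The values of Rnu12, Rnu11, Rnu5g, Rnu1b1, Rnu1b2 and Rnu1b6 are too low to show a direction. The intervals of the ratio for Rnu1a1 (0.765 to 3.12) and Rnu7 (0.438 to 5.91) include equal levels.

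Many members share nearly identical sequence with annotated transcripts of other genes. Among transcripts of other genes in GENCODE M21, matches of at least 95% identity over at least 100 bases were found for 27 of the 48 members. For 16 of them at least 1 of the matching transcripts was annotated as a pseudogene. Genes that overlap a member, as Snurf does Snrpn, were not left out, so the 27 is not a count of members with copies elsewhere. The 16 include Snrpe, Snrpf, Snrpg, Snrpd1, Lsm5, Lsm7, Snrpc, U2af1 and U2af2. Lsm3 matched 1 other gene, not a pseudogene, over 175 bases. How much such sharing moved the values was not tested.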
